A study of Mus musculus with 12 samples.

Results

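In E14 mouse embryonic stem cells with a knockout of Mettl3, 23 genes kept little of their RNA, both in serum medium and after pausing. They are the genes whose mean log2 value, which the authors scaled to cell number, was at least 3 units lower in knockout (KO) than in wild type (WT) cells in each of both conditions. Symbols starting with Gm or ending in Rik were left out. The deposited log table held 14495 genes, and 13560 of them had symbols that this rule kept. The threshold was met by 50 of these in serum and by 62 when paused, and the 23 met both. A further 6 genes met both thresholds but had symbols that the rule drops. The genes were chosen by their KO minus WT difference, so it is given as a description and was not tested.

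All 12 libraries came from the E14 line, grown on gelatin for 2 weeks in medium with fetal bovine serum and LIF (FBS). Each of 4 groups held 3 libraries: WT FBS, Mettl3-KO FBS, WT paused and Mettl3-KO paused. Both paused groups had received INK128, an inhibitor of the kinase mTOR, at 200 nM over those 2 weeks, and neither FBS group had. Polyadenylated RNA came from 200000 cells per library, and synthetic ERCC RNAs were added to the extracted RNA. The labels name neither the knockout clone nor the targeted part of Mettl3, and do not say that replicates were separate cultures. The p-values below therefore measure the spread between these samples, which may be technical.

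Mettl3 is the catalytic subunit of the nuclear complex that writes N6-methyladenosine (m6A) on messenger RNA, and Mettl14 is its partner. The mark is read by YTH-domain proteins and often shortens the life of a message, and embryonic stem cells without it hold on to pluripotency transcripts and differentiate poorly. Inhibition of mTOR slows growth and protein synthesis and brings these cells into a reversible dormant state that resembles embryonic diapause.

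Gene counts per library ranged from 10339130 to 39034079. Levels are given as CPM, read counts scaled to library size with TMM factors, so they are relative to the typical gene. In FBS, Mettl3 stood at 31.6, 36.5 and 33.0 CPM in WT and 25.8, 27.8 and 28.4 CPM in KO replicates 1, 2 and 3. Paused WT cells had 35.3, 39.2 and 33.6 CPM of it, and paused KO cells 28.8, 31.3 and 29.7. A cut or altered message would still be counted, so this is a weak check of the genotype labels. Mettl14 ranged from 37.3 to 42.7 CPM in WT and from 24.6 to 26.0 in KO libraries in FBS, and from 30.2 to 31.3 and 39.5 to 40 when paused. Genes of the Y chromosome (Uty, Kdm5d, Eif2s3y and Ddx3y) had 593 to 3124 counts each in every KO library and 0 to 7 in every WT library, so WT and KO cells differ in more than Mettl3. The summed level of 8 embryonic stem cell markers was 3770 to 4740 CPM in WT FBS and 1960 to 2240 in KO FBS, and 4850 to 5240 in WT paused and 2490 to 2740 in KO paused libraries, with none of the markers at 0. Of these 8, 6 were called lower in KO in each condition and 0 higher (edgeR, adjusted p under 0.05), where of all 15281 genes tested 28.8% were called lower and 29.2% higher in FBS, and 24.7% lower and 27.7% higher when paused. The sum of 14 trophoblast markers was 54.2 to 82.1 CPM in WT FBS against 212 to 270 in KO FBS, and 36.2 to 52.1 against 56.9 to 65.2 when paused, with at most 2 of the 14 at 0 in any group. Of the 11 trophoblast markers tested, 8 were called higher and 1 lower in KO FBS, and 3 higher and 1 lower when paused. In FBS the mean of Krt8 was 8.28 CPM in WT and 93.8 in KO, while that of Tfap2a was 2.47 and 0.962. The sum of 15 neural progenitor markers was 39.7 to 101 against 127 to 148 CPM in FBS and 129 to 178 against 198 to 230 when paused. Of the 8 neural markers tested, 6 were called higher and 2 lower in KO FBS, and 7 higher and 1 lower when paused. Sox1 was lower in KO, with means of 17.3 against 0.608 CPM in FBS and 123 against 17.7 when paused. Of 16 extraembryonic endoderm markers tested, 9 were called lower and 5 higher in KO FBS, and 5 lower and 5 higher when paused. The part of these markers in the results was not tested, and in bulk RNA fewer cells of a type and less RNA per cell cannot be told apart.

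WT FBS replicate 1 stood apart from replicates 2 and 3. Among the 12687 genes with a mean of at least 1 CPM in WT FBS, its level was over 2-fold away from the mean of the other two for 13.8%. Of the 23 genes, 9 were over 2-fold higher in it and 4 over 2-fold lower. The 23 include 5 genes with a mean under 1 CPM in WT FBS, so these counts and the 13.8% cover unlike sets. Without that library the rule found 21 genes, 19 of them among the 23. Ank1, Il3, Kctd19 and Wnt11 then fell outside, and Meg3 and Fam25c came in.

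The genes closest to the threshold were Klf12 (differences of −4.97 in FBS and −3.005 when paused), Rian (−3.02 and −3.90), Wnt11 (−3.07 and −4.25), Sept1 (−3.07 and −4.45) and Tex13 (−4.10 and −3.14). Just outside were Meg3 (−2.99 and −3.81), LOC105246506 (−2.94 and −2.91), Halr1 (−4.34 and −2.90), Fam25c (−2.89 and −4.17) and Myo1a (−3.06 and −2.88). The median gene differed by −0.006 in FBS and by 0.477 when paused on this per-cell scale. The opposite corner was fuller, with 190 named genes at least 3 units higher in KO in both conditions.

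**Figure D1:**
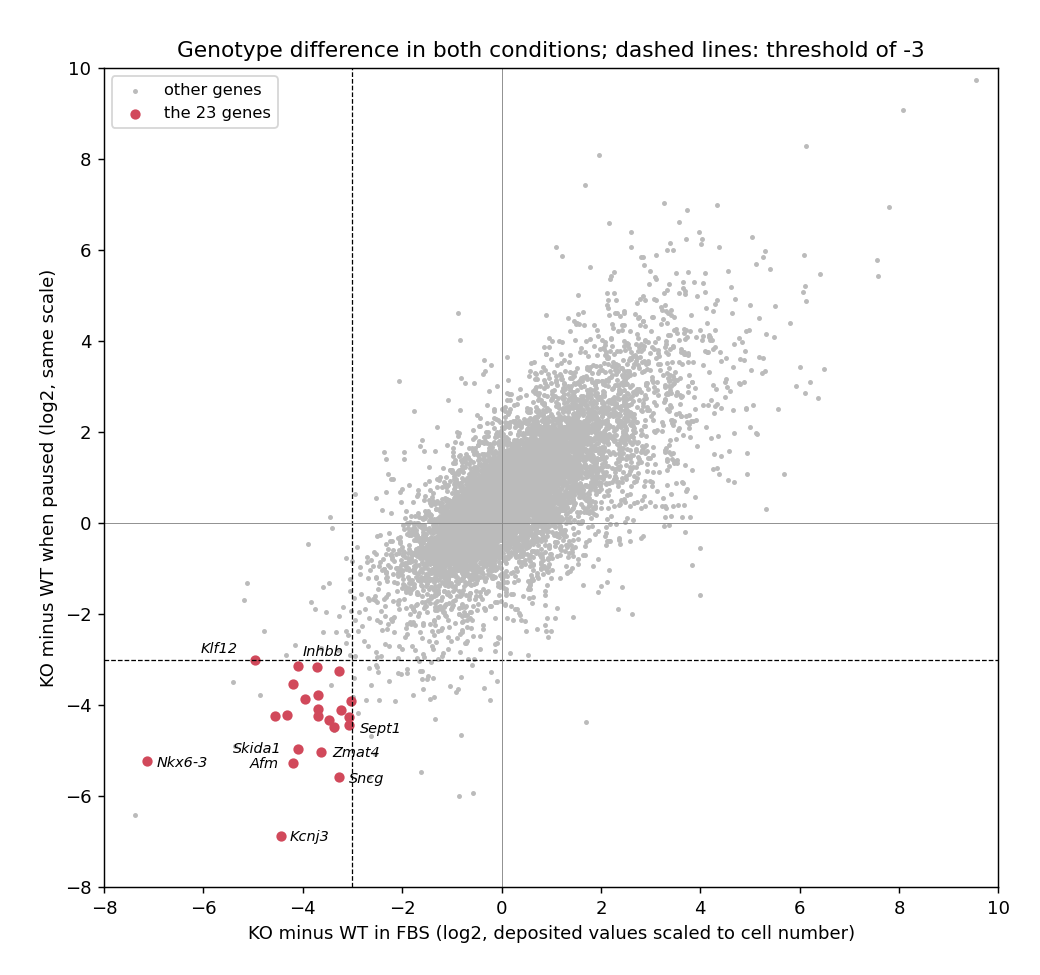
Difference between KO and WT cells in the deposited log2 values scaled to cell number, in FBS (horizontal axis) and when paused (vertical axis), for all genes of the table (grey) and the 23 genes (red, some labelled). Dashed lines mark the threshold of −3. Among the 23, Nkx6-3 lies farthest left at −7.13, Kcnj3 lowest at −6.87, and Klf12 on the threshold for paused cells. Gm4737, whose symbol the rule drops, lies farther left than Nkx6-3, at −7.38.

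Across the 23 genes, the mean KO level was 0 to 11.9% of the WT level in FBS, with a median of 6.33%, and 0 to 8.92% when paused, with a median of 3.48%. In 22 of the 23 the highest of the 6 KO libraries lay below the lowest of the 6 WT libraries, a pattern shown by 13.4% of the 15281 genes tested. Il3 was the exception. Many of the genes were scarce to begin with: 5 had a mean under 1 CPM in WT FBS, and 9 were above 10 CPM there. In KO cells 7 genes had 10 or fewer counts over the 3 FBS libraries and 10 genes over the 3 paused libraries, so how far below WT these lie is known only within wide limits. Of the 23 genes, 22 could be placed in the GENCODE annotation of mouse build GRCm38 (mm10), 20 of them as protein-coding, while AW549542 found no match. Those 22 lie on 12 chromosomes. A gene on the opposite strand overlaps 11 of the 22, and the strand setting of the authors' counting is not given in the sources used here.

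**Figure D2:**
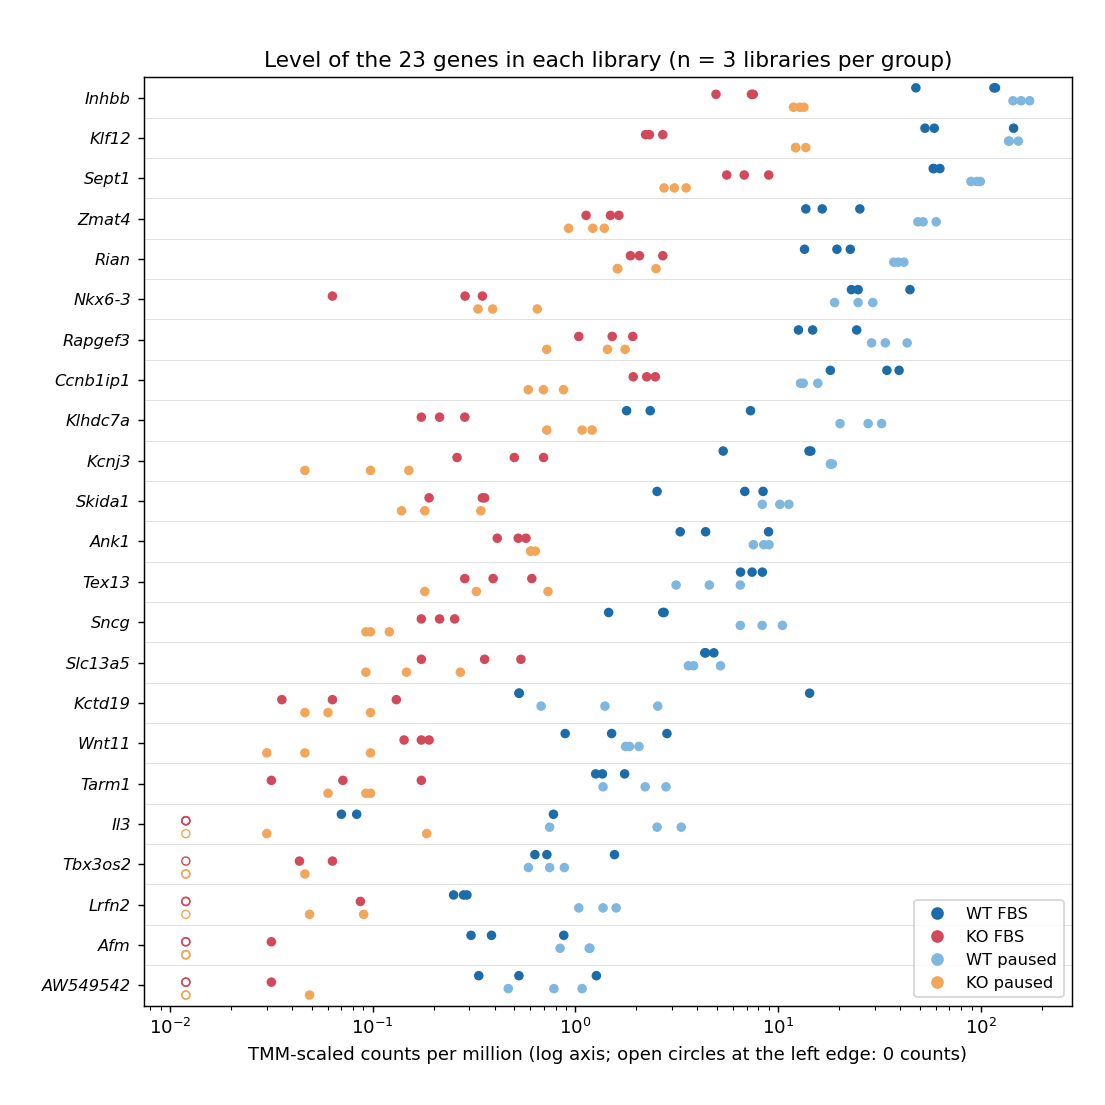
TMM-scaled CPM (log axis) of the 23 genes in each of the 12 libraries, 3 points per group, ordered by mean WT level, with open circles at the left edge for libraries with 0 counts. KO points lie to the left of WT points in every row except that of Il3, and WT FBS replicate 1 lies away from the other WT FBS points in rows such as Kctd19 (14.3 CPM).

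CpG pairs are the sites at which mammalian DNA is methylated. RefSeq promoters on GRCm38.p6, from 250 bases before to 50 after the start, were matched for 15 of the 23, and the other 8 were not described. The median of the 15 was 10 CpG pairs against 20 over all genes, while Wnt11 (45), Slc13a5 (25) and Inhbb (23) lay above 20. Their median ratio of observed to expected CpG was 0.426, against 0.753 over 11140 genes of the table, and 6 of the 15 (40%) reached a ratio of 0.6, against 70.3% of all. For Ccnb1ip1, which is among the 6, the RefSeq start lies 12003 bases from the 5′ end of the gene in GENCODE. This is a description of sequence without a test, and no methylation was measured here. The 6 promoters below are shown as 250 bases upstream of the start, 5′ to 3′ in the direction of the gene, with CpG pairs in capitals, because they span the range from 0 to 37 CpG pairs in those bases. Rian lies at chr12:109603695-109603944 (plus strand), Klhdc7a at chr4:139968027-139968276 (minus strand), Kcnj3 at chr2:55435720-55435969 (plus strand), Sncg at chr14:34374670-34374919 (minus strand), Inhbb at chr1:119422249-119422498 (minus strand) and Wnt11 at chr7:98834862-98835111 (plus strand).
Rian: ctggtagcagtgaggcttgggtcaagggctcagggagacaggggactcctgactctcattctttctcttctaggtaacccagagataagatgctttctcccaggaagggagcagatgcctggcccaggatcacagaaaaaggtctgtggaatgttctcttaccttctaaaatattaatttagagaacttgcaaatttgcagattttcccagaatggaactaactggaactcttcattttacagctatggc
Klhdc7a: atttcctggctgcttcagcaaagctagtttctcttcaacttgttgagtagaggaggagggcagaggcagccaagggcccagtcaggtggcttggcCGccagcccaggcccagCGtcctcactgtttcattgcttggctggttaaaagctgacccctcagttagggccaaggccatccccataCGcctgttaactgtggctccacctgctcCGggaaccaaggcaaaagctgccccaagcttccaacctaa
Kcnj3: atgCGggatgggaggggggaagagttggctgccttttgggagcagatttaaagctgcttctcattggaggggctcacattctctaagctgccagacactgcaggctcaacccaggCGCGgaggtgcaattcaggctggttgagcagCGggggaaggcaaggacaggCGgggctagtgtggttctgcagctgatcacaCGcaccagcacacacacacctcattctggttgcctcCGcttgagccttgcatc
Sncg: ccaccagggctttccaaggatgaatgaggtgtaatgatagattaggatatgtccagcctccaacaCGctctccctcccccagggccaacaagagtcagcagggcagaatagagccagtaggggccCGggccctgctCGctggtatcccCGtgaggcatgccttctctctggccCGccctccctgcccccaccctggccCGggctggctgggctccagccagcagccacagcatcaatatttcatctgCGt
Inhbb: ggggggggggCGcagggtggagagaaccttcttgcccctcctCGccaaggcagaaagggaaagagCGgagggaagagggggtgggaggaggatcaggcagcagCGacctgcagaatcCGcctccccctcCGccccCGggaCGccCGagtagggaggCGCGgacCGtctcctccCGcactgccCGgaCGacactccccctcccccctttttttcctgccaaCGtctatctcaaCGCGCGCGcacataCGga
Wnt11: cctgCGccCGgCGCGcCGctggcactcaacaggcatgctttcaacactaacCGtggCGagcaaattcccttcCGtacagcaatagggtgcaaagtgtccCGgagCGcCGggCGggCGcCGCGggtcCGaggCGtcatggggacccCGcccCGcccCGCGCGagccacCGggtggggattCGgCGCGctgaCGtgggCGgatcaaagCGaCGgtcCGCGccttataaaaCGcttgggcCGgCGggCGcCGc
Rian held 0 CpG pairs in these bases, Klhdc7a 4, Kcnj3 and Sncg 7 each, Inhbb 21 and Wnt11 37.

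The letters GGACT, a common form of the sequence in which m6A is placed, were counted on the sense strand of the longest annotated transcript. They occurred in 21 of the 22 placed genes (95.5%) and in 92.3% of 14360 genes of the table. The median was 1.40 per kb in the former and 1.03 per kb in the latter. Ccnb1ip1 held none, and Nkx6-3 held 7 in 2238 bases. A match says nothing about whether the message is methylated.

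The secreted factors and plasma proteins among the 23 are Inhbb, Wnt11, Il3 and Afm. Inhbb encodes the beta B subunit of activin B and inhibin B, ligands of the TGF-beta family (chromosome 1, 119415465 to 119422248, minus strand). In FBS its level was 47.8, 116 and 118 CPM in WT and 7.54, 7.39 and 4.94 CPM in KO replicates 1, 2 and 3. When paused it was 144, 174 and 158 against 11.9, 13.4 and 12.8 CPM. The groups did not overlap, and WT FBS replicate 1 was the lowest WT library. The KO minus WT difference was −3.71 in FBS and −3.16 when paused. Wnt11, a ligand that acts mainly outside the beta-catenin branch of Wnt signalling, stood at 2.83, 0.891 and 1.51 CPM in WT FBS and 0.174, 0.143 and 0.190 in KO FBS. When paused it stood at 2.06, 1.77 and 1.85 in WT and 0.0977, 0.0464 and 0.0301 in KO, the last from 4 counts in all. The lowest WT library was still above every KO library.

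Il3, a cytokine of blood cell progenitors, had no counts in KO FBS and 13 counts over the WT FBS libraries, 8 of them in replicate 1. With the KO level set at a floor of 3 counts over the group, the WT FBS level was 4.79-fold higher. That ratio leaves out the counting error of the WT side, so it is not a lower bound. In WT paused cells it reached 3.33, 0.747 and 2.53 CPM, and in KO paused cells 0, 0.185 and 0.0301. KO paused replicate 2 lay above WT FBS replicates 2 and 3 (0.0835 and 0.0702 CPM), which is why Il3 alone overlapped between genotypes across conditions. Afm encodes afamin, a plasma protein that binds vitamin E. In FBS it had 31 counts over the WT and 1 over the KO libraries. When paused it had 47 and 0, and the WT level was 27.4-fold higher by the same floor, with the same limit.

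Among the nuclear factors, Nkx6-3 had the largest KO minus WT difference in FBS of the 23. It encodes a homeodomain transcription factor known from the stomach (chromosome 8, 23153269 to 23158948, plus strand). WT FBS libraries held 44.7, 23 and 24.8 CPM and KO FBS libraries 0.348, 0.286 and 0.0634 CPM. Paused WT libraries held 29.3, 24.8 and 19 CPM, and paused KO libraries 0.391, 0.649 and 0.331. The KO level was 0.753% of WT in FBS and 1.87% when paused, and the log2 differences were −7.13 and −5.23. The ratio of WT to KO in FBS was 122, with a 95% interval of 77.2 to 207 that covers counting error only. It pools KO FBS counts of 8, 8 and 2, and does not allow for the choice of the gene by this difference. The interval is thus a description and no test.

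Klf12 encodes a Krüppel-like zinc finger repressor (chromosome 14, 99870632 to 100284679, minus strand). It stood at 145, 53.0 and 58.9 CPM in WT FBS and 2.70, 2.32 and 2.22 in KO FBS. When paused it was at 153, 137 and 138 in WT and 13.7, 12.2 and 12.2 in KO. The KO libraries were far below WT in each condition and higher when paused than in FBS. Skida1, a protein with a SKI/DACH domain, stood at 2.53, 6.85 and 8.43 CPM in WT FBS against 0.348, 0.357 and 0.190 in KO FBS, and at 10.2, 11.3 and 8.36 against 0.342, 0.139 and 0.181 when paused. Zmat4, a matrin-type zinc finger protein, stood at 25.3, 16.5 and 13.7 CPM in WT FBS against 1.13, 1.64 and 1.49 in KO FBS, and at 60.2, 48.9 and 51.9 against 1.22, 0.927 and 1.39 when paused. For both the WT libraries were all above the KO libraries, and the differences were larger when paused (−4.97 for Skida1 and −5.02 for Zmat4) than in FBS (−4.10 and −3.63).

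The membrane proteins include the gene with the largest difference in paused cells. Kcnj3 encodes a potassium channel subunit opened by G proteins (chromosome 2, 55435970 to 55598145, plus strand). It stood at 5.36, 14.5 and 14.2 CPM in WT FBS and 0.261, 0.5 and 0.697 in KO FBS. When paused it was at 18.5, 18.2 and 18.1 in WT and 0.0977, 0.0464 and 0.151 in KO, from 8 KO counts in all. The differences were −4.44 in FBS and −6.87 when paused, and the paused KO level was 0.538% of WT. Slc13a5, a sodium-coupled citrate transporter, stood at 4.35 to 4.82 CPM in WT FBS and 0.174 to 0.539 in KO FBS, and at 3.61 to 5.20 and 0.0927 to 0.271 when paused. Lrfn2, a synaptic adhesion protein, was at 0.251 to 0.292 CPM in WT FBS and 1.04 to 1.59 in WT paused libraries, with 2 and 4 counts over the KO libraries. Tarm1, an activating receptor of myeloid cells, was at 1.26 to 1.75 CPM in WT FBS and 1.37 to 2.80 in WT paused libraries, with 7 and 6 KO counts. For all 3 the KO libraries lay below the WT libraries.

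Of the genes of the cell skeleton and of signalling, Sept1 had the tightest WT libraries in FBS. It encodes a septin, a GTPase that forms filaments (chromosome 7, 127214447 to 127233130, minus strand, overlapped on the other strand by Zfp553). Levels in FBS were 62.8, 58.2 and 58.6 CPM in WT and 5.58, 8.99 and 6.81 CPM in KO replicates. When paused they were 99.3, 95.7 and 89.3 against 3.08, 3.52 and 2.74 CPM. Paused libraries were thus above FBS libraries in WT and below them in KO. Ank1, the ankyrin that links the red cell membrane to spectrin, stood at 8.97, 3.29 and 4.39 CPM in WT FBS against 0.523, 0.571 and 0.412 in KO FBS, and at 9.02, 8.5 and 7.55 against 0.635, 0.603 and 0.603 when paused. Rapgef3, an exchange factor for Rap proteins that cyclic AMP activates, stood at 24.4, 14.8 and 12.6 against 1.92, 1.04 and 1.52 CPM in FBS, and at 33.8, 43.3 and 28.9 against 1.76, 1.44 and 0.723 when paused. Sncg, gamma-synuclein, a protein of nerve endings, stood at 1.46, 2.70 and 2.74 against 0.174, 0.214 and 0.254 CPM in FBS, and at 8.34, 10.5 and 6.51 against 0.0977, 0.0927 and 0.121 when paused. In these 3 genes too no KO library reached a WT library.

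A few of the 23 are known from meiosis and the germline. Ccnb1ip1, which encodes a ubiquitin ligase of meiotic crossovers (chromosome 14, 50789248 to 50807732, minus strand), stood at 18.1, 39.5 and 34.4 CPM in WT FBS and 2.48, 2.25 and 1.93 in KO FBS. When paused it was at 15.7, 12.9 and 13.3 in WT and 0.586, 0.696 and 0.874 in KO, so pausing went with a lower level in both genotypes. Kctd19, a meiotic BTB-domain protein, stood at 14.3, 0.529 and 0.527 CPM in WT FBS, where replicate 1 carried nearly the whole mean. Its KO libraries held 6 counts in FBS and 5 when paused. Tex13 (Tex13b in the annotation), an X-linked gene named for its expression in testis, stood at 6.53, 7.44 and 8.36 against 0.610, 0.393 and 0.285 CPM in FBS, and at 3.14, 4.58 and 6.51 against 0.733, 0.325 and 0.181 when paused. Of the other 21 tested genes of the germline list that holds Tex13, 2 were called lower and 11 higher in KO FBS, beside 28.8% and 29.2% of all genes. When paused 7 were called lower and 5 higher, beside 24.7% and 27.7%. Klhdc7a, a protein with Kelch repeats, stood at 7.31, 2.34 and 1.79 against 0.174, 0.214 and 0.285 CPM in FBS and at 27.8, 32.4 and 20.2 against 1.08, 1.21 and 0.723 when paused.

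The remaining genes include non-coding RNAs. Rian, a maternally expressed long non-coding RNA that hosts small nucleolar RNAs in the imprinted Dlk1-Dio3 cluster (chromosome 12, 109603940 to 109661716, plus strand), stood at 13.5, 19.5 and 22.7 against 2.70, 2.07 and 1.87 CPM in FBS. When paused it was at 39.1, 37.2 and 41.7 in WT and 1.61, 1.62 and 2.50 in KO, so no KO library came near a WT library. Tbx3os2, a non-coding RNA beside Tbx3, had 60 counts over the WT and 3 over the KO libraries in FBS, and 30 and 1 when paused. AW549542, known here by its symbol alone, had 40 and 1 counts in FBS and 37 and 1 when paused.

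Per kb of a gene's annotated exons merged, the highest mean levels in WT FBS were those of Inhbb (22 CPM per kb), Sept1 (21.7), Ccnb1ip1 (16.3), Nkx6-3 (13.8) and Klf12 (12.3). Their mean CPM and SD over 3 libraries were 93.8 ± 39.9, 59.9 ± 2.54, 30.7 ± 11.2, 30.9 ± 12.1 and 85.7 ± 51.6, so neighbours in that order differed by less than their spread. Per kb of the longest transcript, Sept1 (40.3) led Inhbb (22), Ccnb1ip1 (20.3), Klf12 (14.6) and Nkx6-3 (13.8), so the order depends on the length used. In KO FBS Sept1 (2.58 CPM per kb), Inhbb (1.56) and Ccnb1ip1 (1.18) led per kb of merged exons, while Nkx6-3 was at 0.104.

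Several of the 23 genes lay beside other transcripts that were low in KO. Ank1, Nkx6-3 and Zmat4 lie within 1 Mb of each other's starts on chromosome 8, the only such group among the 23. Gm15816, whose symbol the rule drops, overlaps the end of Ank1 on the opposite strand, on the side of Nkx6-3, and differed by −5.36 in FBS and −4.89 when paused. With the strand setting unknown, reads of Gm15816 and Ank1 cannot be told apart where they overlap. In the stretch from Nkx6-3 to Zmat4, Agpat6 differed by −0.30 and 0.12, Gins4 by −1.15 and −0.39, Golga7 by −0.52 and 0.06, and Sfrp1 by −0.43 and −0.63. On the other side Ap3m2 differed by −3.02 in FBS and −1.94 when paused, and Kat6a, between it and Ank1, by −0.15 and 0.05. The low levels were thus not a feature of the whole stretch. The 756 genes of chromosome 8 in the table had a median difference of −0.42 in FBS and 0.03 when paused, below the median gene of −0.006 and 0.477, and its part in these 3 genes was not tested.

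Around Rian, other RNAs of the Dlk1-Dio3 cluster were low too. Meg3, the neighbouring non-coding RNA, stood at 19.7, 28.2 and 30.8 CPM in WT FBS and 3.53, 2.75 and 3.30 in KO FBS, and at 62.1, 55.5 and 74.3 against 3.03, 3.20 and 3.46 when paused. Mirg, a host of microRNAs, differed by −2.09 and −2.95, and the counts under the symbol Rtl1 by −2.03 and −3.32. Rtl1 is a paternally expressed gene with a maternal antisense transcript, and the counts do not say which of them was read. Dlk1, the paternally expressed gene of the cluster, differed by 0.71 and 1.05. Of the 43 imprinted genes tested besides Rian, 18 were called lower and 17 higher in KO FBS, beside 28.8% and 29.2% of all genes, and 13 lower and 15 higher when paused, beside 24.7% and 27.7%.

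Tbx3, a T-box factor of the naive pluripotency network and the neighbour of Tbx3os2 on chromosome 5, stood at 289, 110 and 142 CPM in WT FBS and 25.4, 25.2 and 26.4 in KO FBS. When paused it was at 175, 174 and 194 in WT and 3.03, 3.39 and 1.90 in KO. Its difference of −2.66 in FBS kept it outside the 23, while that of −5.58 when paused was well past the threshold. Gm16063, on the far side of Tbx3, differed by −4.87 and −3.78. Beside Skida1 on chromosome 2, A930004D18Rik differed by −3.37 and −4.54, and Mllt10 on its other side by −1.28 and −1.11. Ccnb1ip1 lies 1506 kb from Mettl3 on chromosome 14, and its neighbours Ttc5 and Parp2 differed by −0.22 and −1.29 in FBS and by 0.10 and −0.59 when paused. The 10 nearest genes of Klf12 had a median of −1.33 in FBS, with 7 of the 10 at −1 or lower, and of −0.12 when paused, with 1. Of all genes, 7.99% were at −1 or lower in FBS and 4.42% when paused.

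**Figure D3:**
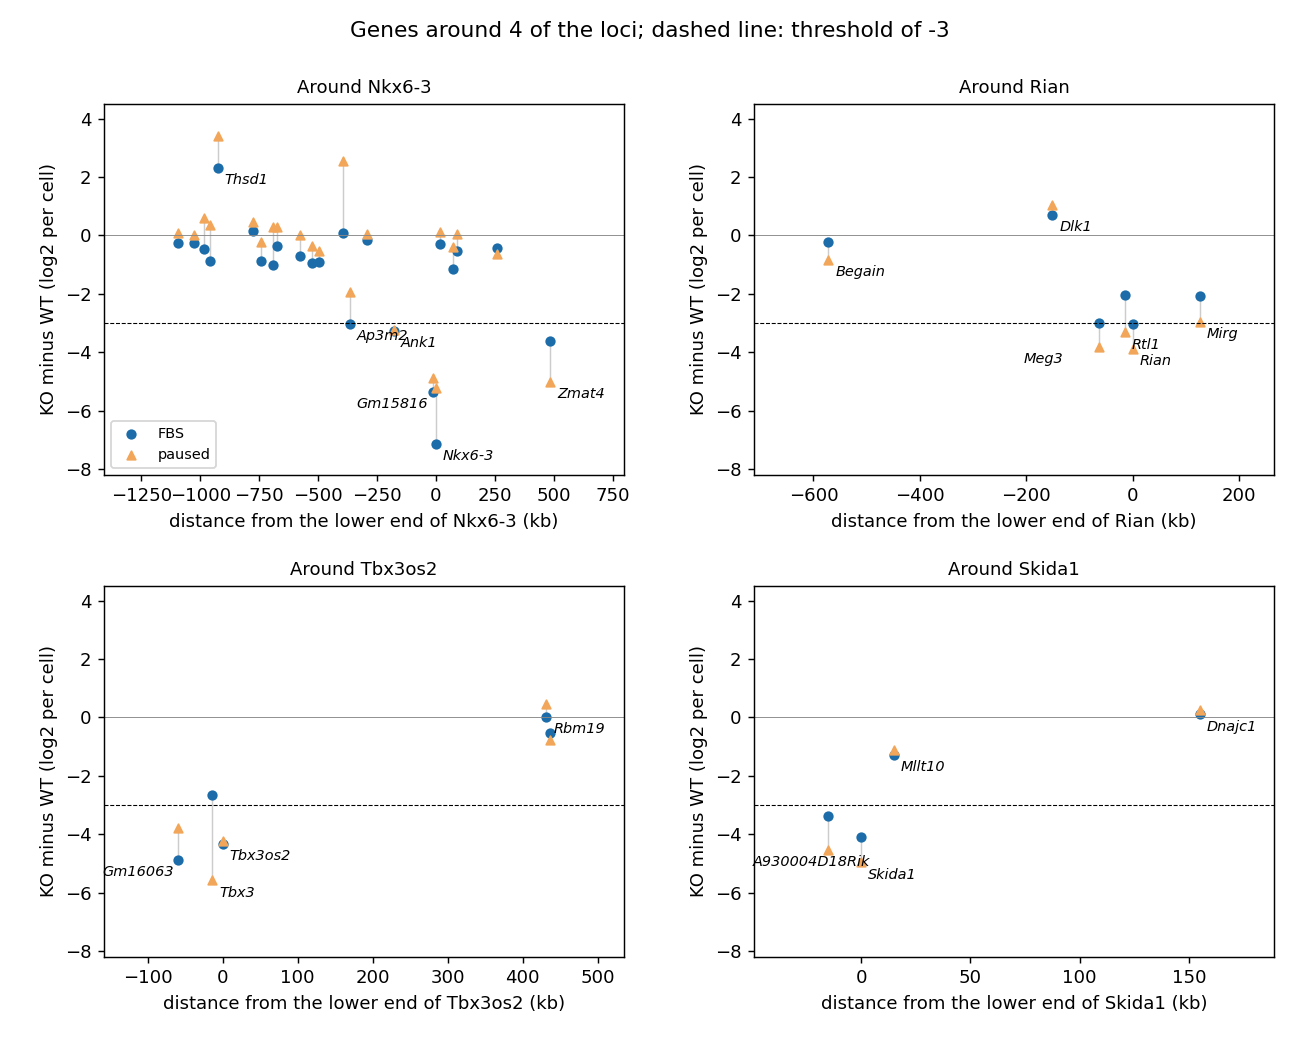
KO minus WT difference of the deposited log2 values (vertical axis) in FBS (circles) and when paused (triangles) for genes around Nkx6-3, Rian, Tbx3os2 and Skida1, against the distance of each gene's lower end from that of the named gene in kb. Ank1, Gm15816, Nkx6-3 and Zmat4 lie below the dashed threshold of −3 in both conditions, with genes near 0 between them, and Dlk1 lies above 0 beside Meg3, Rtl1, Rian and Mirg.

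Pausing within WT cells asks how the 23 genes move where they are expressed. Relative to the typical gene, 10 were called higher and 1 lower in WT paused than in WT FBS cells (edgeR, adjusted p under 0.05), and 12 were not called. Of all genes tested, 18.5% were called higher and 20.1% lower. The median change of the 23 was 0.67 on the log2 scale, against −0.01 over all genes. The rule read these same libraries and requires a WT level well above KO in both conditions, so the genes' changes on pausing are not free of it.

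Klhdc7a rose from 3.81 ± 3.04 to 26.8 ± 6.17 CPM in WT cells (SD, n = 3; log2 change 2.99 ± 0.40 SE, edgeR adjusted p = 0.00019). Lrfn2 rose from 0.275 ± 0.0216 to 1.33 ± 0.277 CPM (2.24 ± 0.44, edgeR adjusted p = 0.00225), and Sncg from 2.30 ± 0.726 to 8.43 ± 1.98 CPM (1.79 ± 0.23, edgeR adjusted p = 0.000149). Zmat4 rose by 1.56 ± 0.20, Rian by 1.07 ± 0.19, Rapgef3 by 1.06 ± 0.28 and Sept1 by 0.66 ± 0.14 log2 units. In these 7 genes every WT paused library lay above every WT FBS library in CPM. The same held for Inhbb and Kcnj3, which made 9 genes. In 2 genes, Ccnb1ip1 and Tex13, every WT paused library lay below every WT FBS library, and in 12 the libraries overlapped. The share of all genes with either pattern was not counted, so these counts do not set the genes apart. Il3 rose too (3.54 ± 0.80, edgeR adjusted p = 0.00635), but WT FBS replicate 1 (0.780 CPM) lay above WT paused replicate 2 (0.747 CPM). Inhbb (0.75 ± 0.26, edgeR adjusted p = 0.0389) and Afm (1.29 ± 0.42, edgeR adjusted p = 0.0318) were near the threshold, and neither was called once WT paused replicate 1 or 3 was left out (Inhbb 0.79 and 0.72, adjusted p = 0.0737 and 0.106, Afm 1.22 and 1.15, adjusted p = 0.0834 and 0.131). Inhbb also lost its call without WT paused replicate 2 (0.68, adjusted p = 0.11), and Afm without WT FBS replicate 2 (0.96, adjusted p = 0.142) or 3 (1.16, adjusted p = 0.109). Ccnb1ip1 was the gene that fell, from 30.7 ± 11.2 to 14 ± 1.51 CPM (−1.16 ± 0.23, edgeR adjusted p = 0.00219).

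Without WT FBS replicate 1, 14 genes were called higher and 2 lower. Klf12 (1.31, edgeR adjusted p = 5.1e-11), Ank1 (1.08, adjusted p = 1.65e-05) and Kcnj3 (0.31, adjusted p = 0.0491) were then called higher and Tex13 lower (−0.69, adjusted p = 0.0255). Kctd19 changed direction, from −1.60 (adjusted p = 0.266) with that library to 1.34 without it (adjusted p = 0.0108). With the replicate number as a block, Klf12 (0.86, adjusted p = 0.0125), Ank1 (0.72, adjusted p = 0.0354) and Kcnj3 (0.74, adjusted p = 0.0358) were called as well. Seen per cell, with counts scaled to the ERCC RNAs, the median of all genes fell by 1.05 in WT cells. On that scale 4 of the 23 were called higher (Il3, Klhdc7a, Lrfn2 and Sncg) and 5 lower (Ccnb1ip1, Nkx6-3, Slc13a5, Tbx3os2 and Tex13), where 1.15% of all genes were called higher and 68.8% lower. Of these, Sncg lost its call without WT FBS replicate 1 (0.56, adjusted p = 0.17), without WT FBS replicate 2 (0.92, adjusted p = 0.0665) or without WT paused replicate 2 (0.43, adjusted p = 0.35), and Lrfn2 without WT FBS replicate 2 (1.14, adjusted p = 0.119), WT FBS replicate 3 (1.34, adjusted p = 0.0647) or WT paused replicate 2 (0.93, adjusted p = 0.156). Under DESeq2, Il3 (1.83, adjusted p = 0.205), Lrfn2 (1.21, adjusted p = 0.137) and Sncg (0.77, adjusted p = 0.0913) lost their calls as well, which left Klhdc7a as the 1 gene of the 4 called under all 10 alternatives. Tbx3os2 lost it without WT FBS replicate 1 (−1.01, adjusted p = 0.0675) or WT paused replicate 3 (−1.22, adjusted p = 0.0695). The genes that rose relative to others but were not called per cell include Rian (1.07 relative and 0.02 per cell), Rapgef3 (1.06 and 0.05) and Zmat4 (1.56 and 0.50).

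Pausing within KO cells asks whether the little RNA that was left still moved. Only 10 of the 23 genes had enough counts in the 6 KO libraries alone to pass the filter on low counts, and the other 13 entered the fit through their WT counts. Relative to the typical gene, 3 genes were called higher (Klf12, Klhdc7a and Inhbb) and 3 lower (Ccnb1ip1, Sept1 and Kcnj3), where 22.3% of all genes were called higher and 20.6% lower. Klf12 rose from 2.41 ± 0.254 to 12.7 ± 0.878 CPM (2.40 ± 0.35, edgeR adjusted p = 0.000177). Sept1 fell from 7.13 ± 1.73 to 3.11 ± 0.393 CPM (−1.21 ± 0.16, edgeR adjusted p = 9.69e-05) and Ccnb1ip1 from 2.22 ± 0.276 to 0.719 ± 0.145 CPM (−1.58 ± 0.33, edgeR adjusted p = 0.00221). Each of these 3 kept its call under all 10 alternatives tried.

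The other 3 calls lay closer to the threshold. Klhdc7a (2.06 ± 0.67, edgeR adjusted p = 0.0261) had an adjusted p of 0.0702, 0.0696 and 0.0547 without KO FBS replicate 1, 2 or 3, and of 0.0591 and 0.0713 without KO paused replicate 1 or 2, while its change stayed at 1.91 to 2.28. Inhbb (0.95 ± 0.29, edgeR adjusted p = 0.0192) had 0.0839 without KO FBS replicate 3 and 0.0533 without KO paused replicate 2, with changes of 0.77 and 0.91. Kcnj3 was 4.79-fold lower when paused, with an interval of 2.22 to 11.8 for counting error (edgeR adjusted p = 0.0262). Its adjusted p was 0.0517 and 0.104 without KO FBS replicate 2 or 3, and 0.0634 and 0.0795 without KO paused replicate 1 or 2. Kcnj3 is also the gene among these 6 that did not pass the filter in the KO libraries alone, so that fit gave it no test.

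Per cell, where the median of all genes fell by 0.715 in KO cells, Klf12 and Klhdc7a were called higher and 9 genes lower, against 2.45% and 45.7% of all genes. The 9 were Ccnb1ip1, Kcnj3, Rapgef3, Rian, Sept1, Slc13a5, Sncg, Wnt11 and Zmat4, with Rapgef3 at the threshold itself (adjusted p = 0.05). The median of the 23 was −0.87. The 11 calls became 7 without KO FBS replicate 2, 5 without KO FBS replicate 3, and 6 without either KO paused replicate 1 or 2. They also became 5 when the fit used the 6 KO libraries alone, where Kcnj3, Slc13a5, Sncg and Wnt11 did not pass the filter and Rapgef3 and Rian were not called (adjusted p = 0.0778 and 0.0651).

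**Figure D4:**
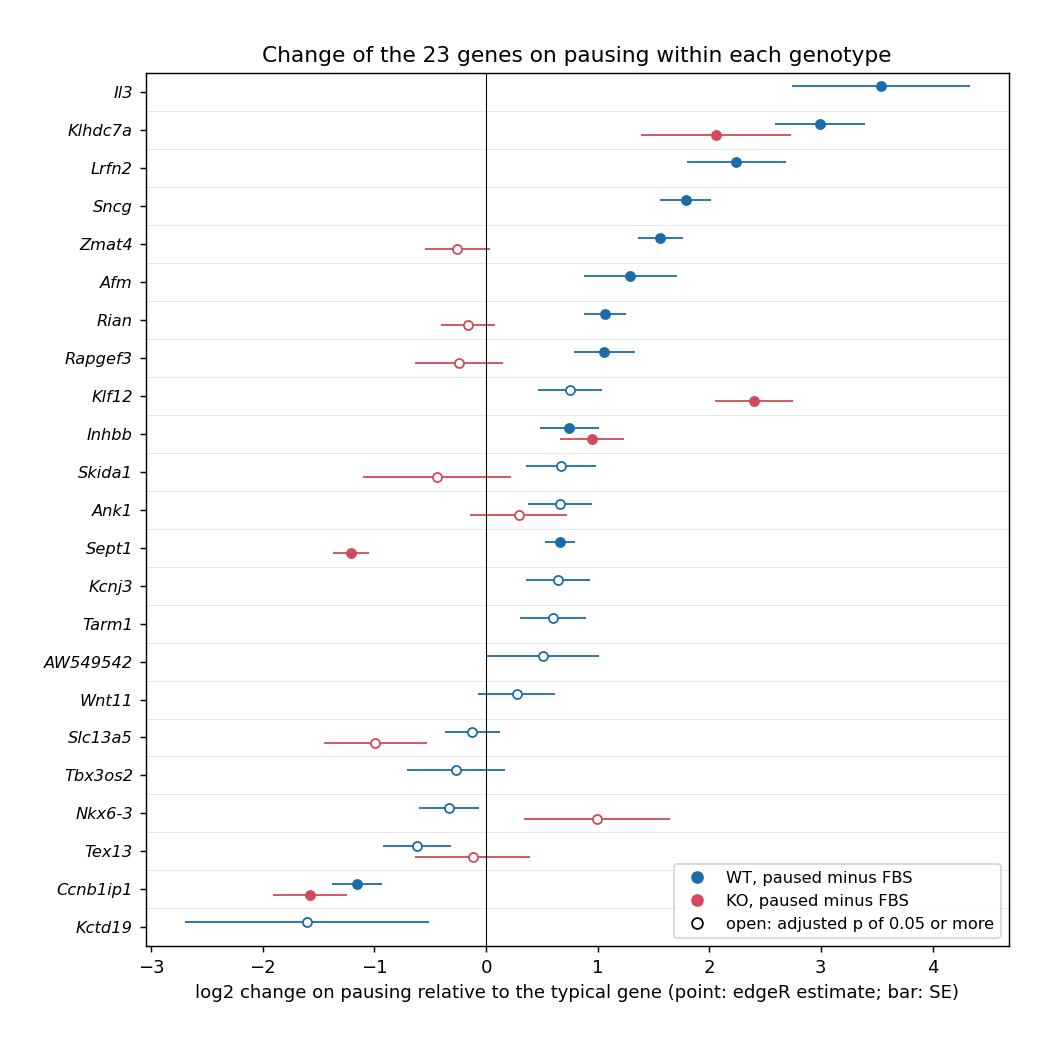
Log2 change of the 23 genes from FBS to paused cells relative to the typical gene, in WT (blue) and KO (red), as edgeR estimates with SE bars from 3 libraries per group, filled where the adjusted p is under 0.05. Genes with 10 or fewer counts in either group of a genotype have no point. Klhdc7a and Inhbb lie right of 0 and Ccnb1ip1 left of 0 in both genotypes, while Sept1 is filled on opposite sides.

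In 3 of the 23 genes every WT paused library lay above every WT FBS library while every KO paused library lay below every KO FBS library, a pattern shown by 2.34% of all genes tested. They were Sept1, Kcnj3 and Sncg, and in the deposited per-cell values their gap between genotypes was wider when paused, by −1.37, −2.43 and −2.32 log2 units of KO minus WT. Relative to the typical gene Sept1 changed by 0.66 in WT and −1.21 in KO, both called. Kcnj3 changed by 0.64 in WT, which was not called (edgeR adjusted p = 0.0952). Sncg rose in WT but was not called in KO (edgeR adjusted p = 0.149), where it had 18 counts in FBS and 8 when paused. Per cell the WT changes of Sept1 (−0.38) and Kcnj3 (−0.39) were below 0 and that of Sncg (0.79) above it. The gap moved the other way in Klf12, by 1.96, and in Nkx6-3, by 1.90. These differences come from the values that chose the genes and were not tested.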

How the data were processed

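RNA was sequenced from 12 libraries of E14 cells, 3 in each of 4 groups, grouped by the sample titles. The authors deposited raw read counts per gene symbol (24421 gene rows and 92 ERCC rows) and log2 values that the labels call normalized to cell number. For the genes in both tables the deposited log2 value equalled log2 of the count plus 0.5 plus a constant per library (largest SD 4.1e-10). The submitters' processing notes list build mm10 and the tools edgeR 3.32.1, Subread 1.5.0, featureCounts and Trim Galore 0.4.0. The role of each, the strand setting, the annotation and the aligner were not given in the sources used here. Sept1 is spelled Sep1 in the count table and was matched by its values.

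The rule was applied to the deposited log2 values. Pausing was tested within each genotype on the deposited counts with edgeR 4.0.16 (R 4.3.3), by quasi-likelihood tests in a fit of 4 group means over all 12 libraries. Genes passed edgeR's default filter (minimum count 10, minimum total 15), which left 15281, all 23 among them (13 only through WT counts), with Benjamini-Hochberg adjustment over these and a threshold of 0.05. Library sizes were gene totals times TMM factors (relative) or ERCC totals times TMM factors over ERCC rows (per cell). Ratios of genes with few counts carry exact 95% binomial intervals on pooled counts, with a floor of 3 counts over a group at 0. PCR reads without molecular identifiers are not independent molecules, so these cover counting error only. These edgeR fits were run on simulated counts with known changes between WT paused and WT FBS in genes with many counts. Changes within KO cells and genes with few counts were not part of that run, and its outcome is not given here. The simulated libraries shared the same ERCC proportion, while the ratio of gene to ERCC counts in KO FBS ran from 47.45 to 93.49. Spread in ERCC scaling between libraries was thus not covered either. Deviations from group means in same-numbered libraries had correlations of 0.208, 0.103 and 0.127 in WT and 0.381, 0.125 and 0.292 in KO. Differently numbered pairs reached 0.123 in WT (FBS 2 with paused 3) and 0.086 in KO (FBS 3 with paused 2). Pairing by number was thus unclear in WT, and a fit with the replicate number as a block was run as an alternative.

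The 23 genes and the gene lists were chosen with earlier results of these data known. The rule for named genes took Mettl3, Mettl14, the highest WT levels, the largest differences, the genes at the threshold, the largest WT pausing calls, list members and close neighbours. The rest of the 23, and the genes around them, were named after their values were seen. Positions are from GENCODE vM21. Alternatives were DESeq2 1.42.0, no filter on low counts, the libraries of a genotype alone, the block, each library left out, and for the rule other thresholds, log2 CPM, all symbols and a minimum WT count.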

Additional observations from a re-analysis of the deposited data

Results flagged for a closer look

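In 3 genes every WT paused library lay above every WT FBS library, and every KO paused library below every KO FBS library. These levels are relative to the typical gene, and 2.34% of all genes tested showed that pattern. In the deposited log2 values, which are per cell, the KO minus WT difference, paused minus FBS, was −2.43 for Kcnj3, −2.32 for Sncg and −1.37 for Sept1. On that scale the WT means of Kcnj3 (3.77 in FBS and 3.55 when paused) and Sept1 (6.30 and 5.92) did not move up. None of these differences was tested, since the values that chose the genes also make them up. Kcnj3 and Sncg each rest on 8 counts in KO paused cells.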

How the results depend on the processing

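The rule found 72 genes at a threshold of −2 and 6 at −4. It found 20 on log2 CPM (17 shared), 29 with all symbols and 21 with a mean WT count of at least 10, and 18 to 27 without any 1 library. On log2 CPM, AW549542, Afm, Il3, Lrfn2, Sncg and Wnt11 fell outside, and Halr1, Igsf21 and Islr2 came in. The minimum WT count left out Il3 and Lrfn2. Calls in WT cells numbered 9 to 16 (relative) and 7 to 9 (per cell) without any 1 library, and in KO cells 3 to 6 (relative) and 5 to 11 (per cell). With the 6 KO libraries alone, 5 genes were called per cell, as 4 of the 11 did not pass the filter there and 2 were not called. Among genes that were not called, leaving out 1 library turned the direction of some, as ranges over the libraries left out: −2.26 to 1.34 for Kctd19 (1.34 without WT FBS replicate 1, then called), −0.52 to 0.01 for Tbx3os2 and −0.12 to 0.64 for Wnt11 in WT, and −0.78 to 0.33 for Tex13 (0.17 without KO FBS replicate 1) and −0.51 to 0.11 for Rapgef3 in KO cells. The cause was not tested. Under all 10 alternatives 9 of the 11 relative calls in WT remained, 3 of 6 in KO, and per cell 5 of 9 and 3 of 11. The replicate block added Klf12 (0.86), Ank1 (0.72) and Kcnj3 (0.74) to the 11 relative calls in WT, which made 14, and Kctd19 per cell, which made 10. It left the calls in KO at 6 and 11 and changed no other call.

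Depth limits the KO side: 10 or fewer counts over 3 libraries in 7 genes in FBS and 10 when paused. The spread between KO FBS libraries in ERCC scaling is shared by all genes, so per-cell calls are not independent.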
